A study of Mus musculus with 11 samples.

Results

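Lysosomes are the acidic compartments in which cells take apart proteins, sugars, lipids and nucleic acids. The 33 genes described here encode lysosomal hydrolases (peptidases, glycosidases, sulfatases and lipid enzymes), proteins of the lysosomal membrane, secreted or cleaved precursors that act in lysosomes, and Tfeb, a transcription factor that drives lysosomal genes. They were chosen by gene name. All 33 were present among the 32285 genes of the count table, and all 33 passed the filter on low counts, which left 15093 genes for testing.

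The libraries are RNA-seq of pancreatic islets from 16-week-old mice on a high-fat diet for 4 weeks. Control islets came from littermates, and the other islets came from mice that the labels call βZKO_Mip, a knockout of Zzef1 in beta cells; the labels do not spell out the driver that Mip stands for. Islets were exposed for 24 h to azoramide at 10 µM, a compound known to modulate protein folding in the endoplasmic reticulum, or to DMSO, its solvent. There were 3 control DMSO, 3 control azoramide, 2 labelled-knockout DMSO and 3 labelled-knockout azoramide libraries, each from islets of at least 3 mice of 1 genotype, and the labels call the replicates independent. The labels do not say whether azoramide and DMSO islets came from the same mice.

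Lysosomal proteins are made at the endoplasmic reticulum, passed through the Golgi, and carried to lysosomes largely by mannose 6-phosphate receptors. Many of their genes hold a short sequence, CACGTG, near the start of transcription, to which Tfeb and its relatives Tfe3 and Mitf bind. When the kinase complex mTORC1 at the lysosomal surface is inactive, these factors move to the nucleus. In beta cells, lysosomes also take up insulin granules that are not secreted.

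The CACGTG element was looked for on both strands in the RefSeq promoters of GRCm38.p6, which run from 250 bases before to 50 bases after the gene's start. Of the 33 genes, 29 had an entry there, and 11 of those 29 (37.9%) held at least 1 CACGTG, against 8.09% of 27025 genes with a promoter entry and 11.4% of 11543 genes tested. The longer form TCACGTG, which contains CACGTG, was in 9 of 29 (31%), against 4.29% and 6.71%. Lamp1 held 4 matches, Gla, Mcoln1, Ctsd and Ctsa held 2 each, and Ctsf, Ctsl, Gaa, Glb1, Naglu and Sgsh held 1 each. A match describes the letters only and says nothing of binding in these islets. Stretches before the start are shown for 4 genes that cover the range of responses to azoramide given below (Lamp1 and Gla higher in both genotypes, Gaa lower in control islets, Glb1 with no call), with CACGTG in capitals, 5′ to 3′ on the strand of the gene. They are chr8:13159086-13159160 on the plus strand for Lamp1, chrX:134601166-134601255 on the minus strand for Gla, chr11:119267793-119267862 on the plus strand for Gaa and chr9:114400993-114401067 on the plus strand for Glb1.
Lamp1: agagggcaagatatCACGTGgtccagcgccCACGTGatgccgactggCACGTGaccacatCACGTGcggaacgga
Gla: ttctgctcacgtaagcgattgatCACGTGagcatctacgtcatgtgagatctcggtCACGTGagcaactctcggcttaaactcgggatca
Gaa: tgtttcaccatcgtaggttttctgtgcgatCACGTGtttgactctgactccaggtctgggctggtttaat
Glb1: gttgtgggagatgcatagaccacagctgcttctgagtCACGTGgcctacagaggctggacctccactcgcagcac

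Among genes with a promoter entry, the element was in 4 of 8 that were higher with azoramide in control islets, in 3 of 5 that were lower, and in 4 of 16 with no call. By these calls, presence of the element did not go with a single direction of change. The 3 that fell were Ctsf, Gaa and Sgsh, and their calls depended on the scaling. With an offset for gene length and GC content they were at -0.16, 0.05 and -0.17, none of them called. Of those that rose, Lamp1 also lost its call with the offset (0.12), and Gla, Ctsd and Ctsl kept theirs. Man2b1 and Grn, whose falls were kept, held no CACGTG.

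Library totals ran from 16832800 to 19501813 counts, and the lowest count of any of the 33 genes in any library was 31. Levels are CPM, counts scaled to TMM-adjusted library sizes, and tests used the quasi-likelihood test of edgeR on the counts of all 11 libraries, adjusted over the 15093 genes by Benjamini-Hochberg with a threshold of 0.05. Zzef1 itself stood at 85.4, 110 and 96.5 CPM in control DMSO and at 79.4 and 83.5 CPM in labelled-knockout DMSO. The log2 difference was -0.26 (SE 0.0871, edgeR adjusted p = 0.999), and both labelled-knockout libraries lay below the control libraries. With azoramide the difference was 0.13 (SE 0.0787, edgeR adjusted p = 0.968). Azoramide itself lowered Zzef1 in control islets (-0.55, edgeR adjusted p = 3.46e-05), and in labelled-knockout libraries Zzef1 was at -0.16 (edgeR adjusted p = 0.153). The counts therefore showed a small difference with DMSO, not past the threshold, and no clear loss of Zzef1. Islets hold other cells than beta cells, and reads outside a deleted part would still be counted. Genotypes are given as labelled throughout. In a principal component analysis of 2000 genes, library 2 of control DMSO and library 3 of labelled-knockout azoramide lay at opposite ends of the second component, and results that rest on either are given with and without it.

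With DMSO alone the 33 genes spanned a wide range. Scaled per kilobase of exon, so that genes can be compared, Psap led in control DMSO at 281 ± 9.56 CPM per kb (SD, n = 3). It encodes prosaposin, the precursor of the saposins that present lipids to lysosomal enzymes. Lamp1 followed at 201 ± 4.92, Cd63 at 143 ± 10.2, Ctsb at 90.2 ± 11.5 and Ctsd at 87.3 ± 5.68 CPM per kb; the last of these did not differ beyond their spread. The lowest were Lipa at 2.16 ± 0.33, Ctsh at 1.51 ± 0.281 and Tfeb at 0.786 ± 0.218 CPM per kb. Together the 33 genes made up 0.551% to 0.562% of counts in control DMSO, 0.559% to 0.56% in labelled-knockout DMSO, 0.612% to 0.675% in control azoramide and 0.625% to 0.704% in labelled-knockout azoramide. The azoramide libraries lay above the DMSO libraries in both genotypes, and 5 genes (Ctsb, Psap, Cd63, Lamp1 and Ctsl) held the largest summed CPM.

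Azoramide changed the lysosomal genes in both directions. In control islets 10 of 33 rose (30.3%), where 19.3% of all genes tested rose, and 5 fell (15.2%), where 19.8% of all genes fell. In labelled-knockout libraries 13 rose (39.4%), where 20% of all genes rose, and 5 fell (15.2%), where 19.8% did. The median log2 fold change of the 33 was 0.11 in control islets and 0.09 in labelled-knockout libraries, and over all genes tested it was -0.02 and -0.00. The share that rose was above that of all genes and the share that fell below it, and neither difference was tested. Without both outlying libraries, 10 rose and 8 fell in control islets, where 3176 and 3279 of 14962 genes tested did. The share that fell there was then no longer below that of all genes. In labelled-knockout libraries 14 rose and 7 fell in that setting, where 3499 and 3431 of all genes did. Without control azoramide library 1 only 3 fell in control islets, where 2413 of 15046 genes tested did.

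In both genotypes 10 genes rose: Lamp1, Lamp2, Cd63, Ctsb, Ctsd, Ctsl, Ctsz, Gla, Asah1 and Ppt1. In both genotypes 4 genes fell: Man2b1, Grn, Ctsf and Sgsh. Of all genes tested, 15.8% rose and 15.5% fell in both; the genotypes share no libraries. Gaa fell past the threshold in control islets only. In labelled-knockout libraries only, Scarb2, Ctsh and Ctss rose and Mcoln1 fell past the threshold. No gene was called in opposite directions, and 14 genes passed in neither genotype. Calls made in 1 genotype are not shown to differ between genotypes; that test is given further below.

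**Figure D1:**
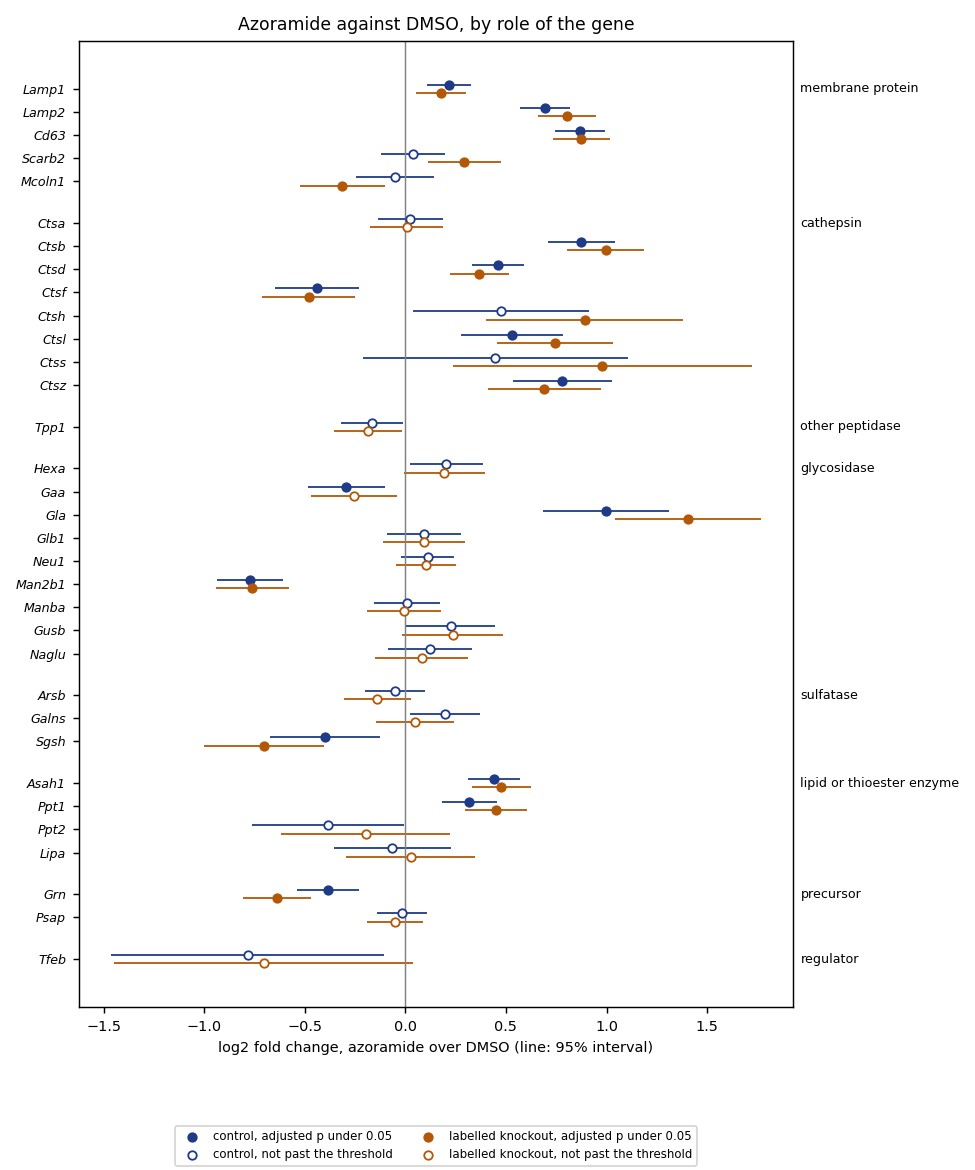
Log2 fold change of azoramide over DMSO (x axis) for each of the 33 genes (y axis, grouped by role) in control islets (blue) and labelled-knockout libraries (brown). Lines are 95% intervals, filled points passed an edgeR adjusted p of 0.05 and open points did not; 10 genes are filled to the right of 0 in both genotypes and 4 to the left.

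Membrane proteins held some of the clearest increases. Cd63, a tetraspanin of lysosomes and secretory organelles (chr10:128900989-128912822, plus strand, GENCODE M21 on GRCm38, as for the genes below), stood at 503, 571 and 509 CPM in control DMSO and at 938, 934 and 1017 CPM in control azoramide. With the knockout label the gene stood at 518 and 525 CPM with DMSO and at 966, 957 and 945 CPM with azoramide. Every azoramide library lay above every DMSO library of its genotype. The log2 fold change was 0.87 in control islets (SE 0.0592, edgeR adjusted p = 1.02e-08) and 0.87 in labelled-knockout libraries (SE 0.0674, edgeR adjusted p = 9.1e-08).

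Lamp2, a heavily glycosylated protein of the lysosomal membrane with a part in chaperone-mediated autophagy, stood at 391, 411 and 381 CPM in control DMSO and at 630, 619 and 664 CPM in control azoramide. In libraries with the knockout label it stood at 367 and 360 CPM with DMSO and at 648, 669 and 587 CPM with azoramide. Groups did not overlap in either genotype. It rose by 0.69 on the log2 scale in control islets (SE 0.0594, edgeR adjusted p = 1.47e-07) and by 0.80 in labelled-knockout libraries (SE 0.0677, edgeR adjusted p = 1.81e-07).

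Lamp1, the related and more abundant membrane glycoprotein, moved far less. Its level was 541, 523 and 548 CPM in control DMSO and 608, 619 and 645 CPM in control azoramide. The labelled-knockout level was 559 and 560 CPM with DMSO and 650, 604 and 646 CPM with azoramide. The azoramide libraries were higher without overlap, by 0.22 on the log2 scale in control islets (SE 0.0527, edgeR adjusted p = 0.0034) and 0.18 in labelled-knockout libraries (SE 0.0591, edgeR adjusted p = 0.0231). This call depended on the scaling: with plain library totals the values were 0.05 and 0.02, and with an offset for gene length and GC content 0.12 and 0.10, none past the threshold. In labelled-knockout libraries it was also lost without DMSO library 1 (0.18, edgeR adjusted p = 0.13), DMSO library 2 (0.18, edgeR adjusted p = 0.129) or azoramide library 1 (0.16, edgeR adjusted p = 0.0832).

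The other membrane proteins were Scarb2, which carries glucocerebrosidase to lysosomes, and Mcoln1, a calcium channel of the lysosomal membrane. Scarb2 was at 0.04 in control islets (edgeR adjusted p = 0.743) and rose by 0.29 in labelled-knockout libraries (SE 0.0855, edgeR adjusted p = 0.0111). That rise was not past the threshold without labelled-knockout DMSO library 2 (0.25, edgeR adjusted p = 0.124), without azoramide library 2 (0.23, edgeR adjusted p = 0.0577) or with plain library totals (0.14). Mcoln1 was at -0.05 in control islets (edgeR adjusted p = 0.703) and fell by 0.31 on the log2 scale in labelled-knockout libraries (SE 0.101, edgeR adjusted p = 0.0197). Its values with azoramide were 37.4, 38.2 and 48.5 CPM against 49.1 and 53.7 CPM with DMSO, so library 3 lay just under the DMSO libraries. The call was lost without DMSO library 2 (-0.25), azoramide library 1 (-0.25) or azoramide library 2 (-0.26), and with the offset for length and GC (-0.09).

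**Figure D2:**
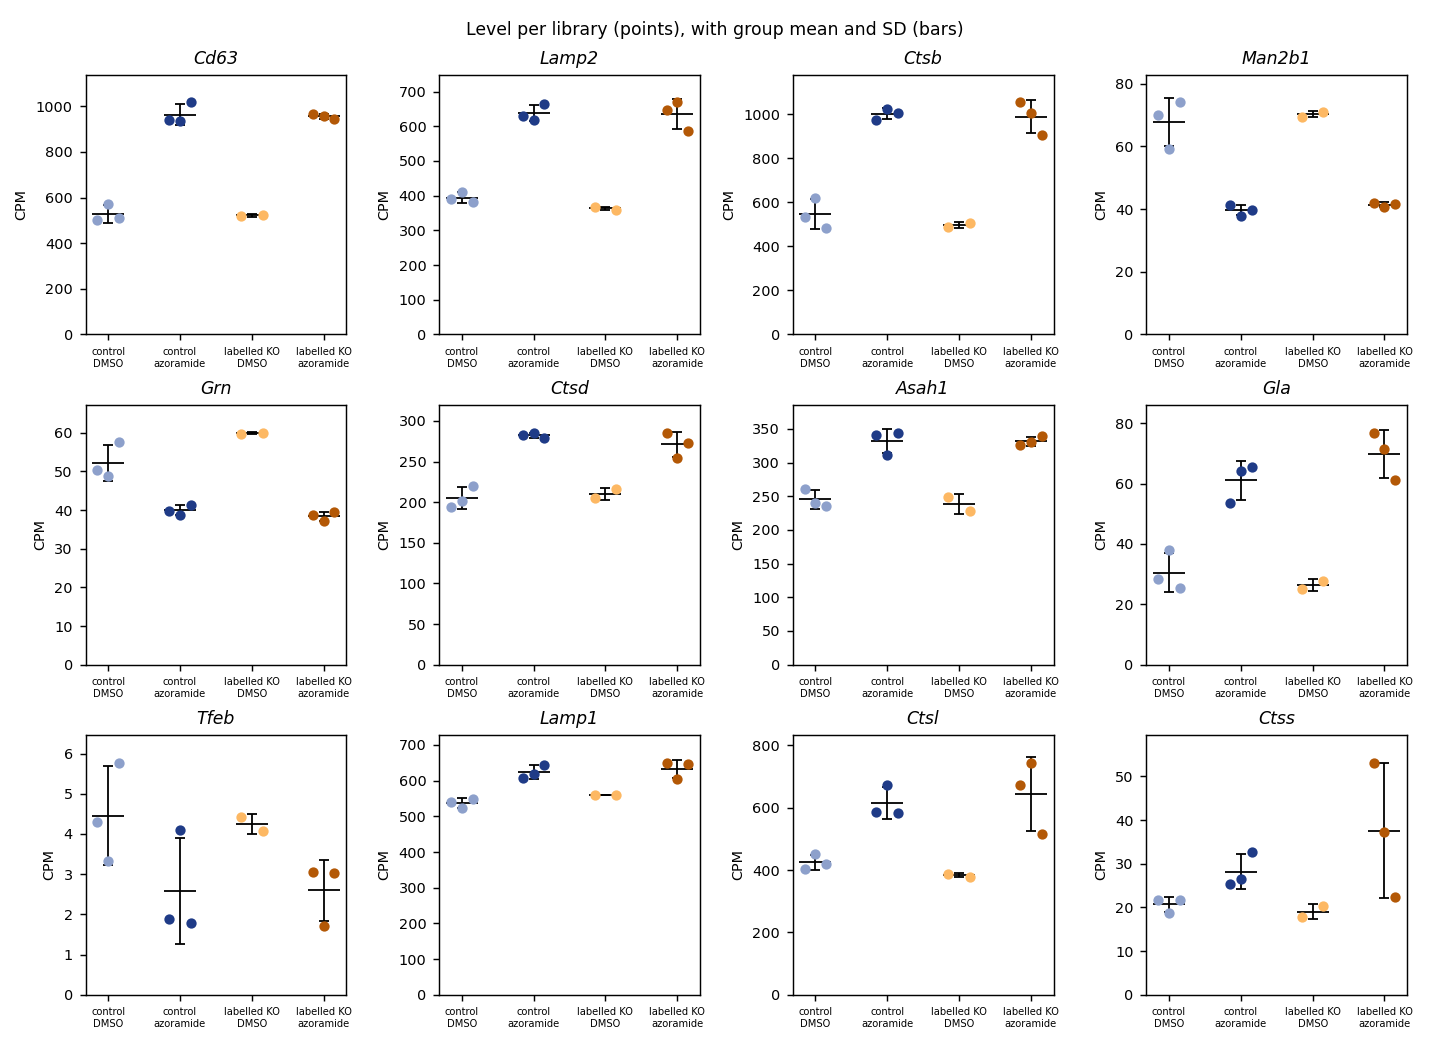
Level in CPM (y axis, from 0) of 12 genes in each library, by group (x axis); points are libraries, and bars give the group mean and SD. Cd63, Lamp2, Ctsb, Gla and Asah1 sit higher and Man2b1 and Grn lower in the azoramide libraries of both genotypes, while Tfeb overlaps in control islets and Ctss spreads from 22.4 to 53.1 CPM in labelled-knockout azoramide.

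Cathepsins are the lysosomal peptidases. Of 8, control islets had 4 that rose and 1 that fell (19.3% and 19.8% of all genes), and labelled-knockout libraries had 6 and 1 (20% and 19.8% of all genes). Whether cathepsins differ in this from other genes was not tested. Ctsb, an abundant cysteine cathepsin (chr14:63122462-63145923, plus strand), stood at 534, 620 and 483 CPM in control DMSO and 974, 1023 and 1004 CPM in control azoramide. With the knockout label the gene was at 486 and 505 CPM with DMSO and at 1053, 1006 and 905 CPM with azoramide. Azoramide libraries lay above all DMSO libraries. The log2 fold change was 0.87 in control islets (SE 0.0786, edgeR adjusted p = 3.89e-07) and 0.996 in labelled-knockout libraries (SE 0.0901, edgeR adjusted p = 5.45e-07).

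Ctsd, the main aspartic peptidase of lysosomes, rose from 194, 202 and 220 CPM to 282, 286 and 279 CPM in control islets. In libraries with the knockout label it rose from 205 and 216 CPM to 286, 255 and 273 CPM. There was no overlap, and the log2 fold changes were 0.46 (SE 0.0616, edgeR adjusted p = 1.83e-05) and 0.37 (SE 0.0694, edgeR adjusted p = 0.000444). Ctsl, a cysteine cathepsin with roles in prohormone processing, rose from 404, 451 and 420 CPM to 587, 673 and 582 CPM in control islets. The labelled-knockout level rose from 389 and 379 CPM to 672, 744 and 515 CPM. Its log2 fold changes were 0.53 (SE 0.115, edgeR adjusted p = 0.00352) and 0.75 (SE 0.131, edgeR adjusted p = 0.000916), and labelled-knockout azoramide library 3 was the lowest of the azoramide libraries.

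Ctsz, a carboxypeptidase, rose by 0.78 in control islets (SE 0.114, edgeR adjusted p = 0.000142) and 0.69 in labelled-knockout libraries (SE 0.129, edgeR adjusted p = 0.000874), without overlap. Ctsf, a less studied cysteine cathepsin, went the other way, by -0.44 (SE 0.0989, edgeR adjusted p = 0.00188) and -0.48 (SE 0.109, edgeR adjusted p = 0.00194). Its levels were 41.5, 37.3 and 51.1 CPM with DMSO and 29.8, 33.9 and 32.1 CPM with azoramide in control islets. With the offset for length and GC the values were -0.16 and -0.15, no longer past the threshold. Ctsa, which also protects beta-galactosidase and neuraminidase, was at 0.02 and 0.01 (edgeR adjusted p = 0.829 and 0.967), with overlapping groups.

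Ctss and Ctsh are cathepsins that are abundant in antigen-presenting cells. Ctss stood at 21.7, 18.7 and 21.8 CPM in control DMSO and at 25.3, 26.6 and 32.8 CPM in control azoramide. In labelled-knockout libraries it was at 17.8 and 20.3 CPM with DMSO and at 53.1, 37.3 and 22.4 CPM with azoramide. Azoramide libraries were above DMSO libraries in both, but the labelled-knockout azoramide group spread widely. The log2 fold change was 0.45 in control islets (SE 0.284, edgeR adjusted p = 0.264) and 0.98 in labelled-knockout libraries (SE 0.321, edgeR adjusted p = 0.0423). Ctsh was at 0.48 in control islets (SE 0.206, edgeR adjusted p = 0.0809) and rose by 0.89 in labelled-knockout libraries (SE 0.23, edgeR adjusted p = 0.00558), from 6.2 and 7.0 CPM to 15.5, 12.9 and 8.2 CPM. Both cathepsins had the same order of the labelled-knockout azoramide libraries.

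The summed level of 15 macrophage markers had that order too. It was 105, 72.7 and 43.2 CPM in labelled-knockout azoramide libraries 1, 2 and 3, against 52.0 and 51.0 CPM in labelled-knockout DMSO. In control islets it ran from 40.1 to 53.5 CPM with DMSO and from 50.4 to 60.3 CPM with azoramide, and 1 marker was at 0 in labelled-knockout azoramide library 3. Of the 15 markers, 1 rose (Cd14) in control islets and 4 rose in labelled-knockout libraries (19.3% and 20% of all genes rose). A covariate was added as an alternative after the data were seen. It was the mean log CPM of the 15 markers, not their summed level. With it, Ctss was higher by 0.44 in control islets (edgeR adjusted p = 0.000506) and by 0.65 in labelled-knockout libraries (edgeR adjusted p = 8.25e-05). Ctsh was then higher by 0.48 in control islets (edgeR adjusted p = 0.00846) and by 0.645 in labelled-knockout libraries (edgeR adjusted p = 0.0035). The Ctss call in labelled-knockout libraries was lost without any single control library (0.98 in each case, edgeR adjusted p from 0.0503 to 0.0671), without DMSO library 1 (0.89) or 2 (1.08), and without azoramide library 2 (0.99), and with plain library totals (0.83) or the offset for length and GC (0.40). With that offset Ctss was at -0.07 in control islets. The Ctsh call there was lost without DMSO library 1 (0.80, edgeR adjusted p = 0.0649), and without labelled-knockout azoramide library 3 both cathepsins passed in control islets (Ctss 0.45, edgeR adjusted p = 0.021; Ctsh 0.48, edgeR adjusted p = 0.0248).

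Tpp1, a tripeptidyl peptidase mutated in a childhood neuronal storage disease, was at -0.17 in control islets (edgeR adjusted p = 0.0824) and -0.18 in labelled-knockout libraries (edgeR adjusted p = 0.0776). Without labelled-knockout azoramide library 3 it passed in both, at -0.16 (edgeR adjusted p = 0.0463) and -0.26 (edgeR adjusted p = 0.0115). It also passed in both with plain library totals, at -0.33 (edgeR adjusted p = 0.00103) and -0.34 (edgeR adjusted p = 0.00206).

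Glycosidases, which trim sugar chains, held both the largest rise and the largest called fall among the 33. Of 9, Gla was the 1 that rose in each genotype, 2 (Man2b1 and Gaa) fell in control islets, and 1 (Man2b1) fell in labelled-knockout libraries. The shares of all genes were 19.3% rising and 19.8% falling in control islets, and 20% and 19.8% in labelled-knockout libraries. Gla, the alpha-galactosidase deficient in Fabry disease (chrX:134588149-134601125, minus strand), stood at 28.3, 37.8 and 25.4 CPM in control DMSO and at 53.6, 64.1 and 65.4 CPM in control azoramide. With the knockout label the gene stood at 24.9 and 27.8 CPM with DMSO and at 76.9, 71.3 and 61.0 CPM with azoramide. There was no overlap, and the log2 fold change was 0.998 (SE 0.143, edgeR adjusted p = 0.000211) and 1.40 (SE 0.165, edgeR adjusted p = 5.09e-05). The 2 CACGTG matches of Gla lie at -227 and -194 from its start, in the stretch printed above. Ctsd, Ctsa and Mcoln1 hold 2 matches as well. Of these Ctsd rose in both genotypes, Ctsa passed in neither, and Mcoln1 fell past the threshold in labelled-knockout libraries only.

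Man2b1, the lysosomal alpha-mannosidase (chr8:85083270-85098282, plus strand), fell from 70.2, 59.1 and 74.1 CPM to 41.2, 37.9 and 39.8 CPM in control islets. In libraries with the knockout label it fell from 69.5 and 70.9 CPM to 42.0, 40.6 and 41.7 CPM. All azoramide libraries lay below all DMSO libraries. The log2 fold change was -0.77 (SE 0.078, edgeR adjusted p = 8.94e-07) in control islets and -0.76 (SE 0.0852, edgeR adjusted p = 3.35e-06) in labelled-knockout libraries. With the offset for length and GC it was -0.44 and -0.39, still past the threshold.

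Gaa, the acid alpha-glucosidase that breaks down glycogen, stood at 231, 281 and 205 CPM in control DMSO and at 180, 202 and 204 CPM in control azoramide. The log2 fold change was -0.29 in control islets (SE 0.0901, edgeR adjusted p = 0.0176) and -0.26 in labelled-knockout libraries (SE 0.1, edgeR adjusted p = 0.0547). The control call was lost without DMSO library 2 (-0.16, edgeR adjusted p = 0.0636) or azoramide library 1 (-0.23, edgeR adjusted p = 0.0931), and with the offset for length and GC the sign turned, to 0.05 and 0.16. In labelled-knockout libraries Gaa passed without control DMSO library 2 (-0.26, edgeR adjusted p = 0.00394) or 3 (-0.26, edgeR adjusted p = 0.0117). The direction of Gaa thus rested on the scaling.

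The other 6 glycosidases passed in neither genotype. Hexa, a subunit of beta-hexosaminidase, was at 0.20 and 0.19 in control and labelled-knockout islets, and Gusb, beta-glucuronidase, was at 0.22 and 0.23. Hexa passed in control islets without azoramide library 1 (0.30, edgeR adjusted p = 0.0124) or labelled-knockout azoramide library 1 (0.20, edgeR adjusted p = 0.0478). Gusb passed without control azoramide library 1 (0.31, edgeR adjusted p = 0.0378) and, in labelled-knockout libraries, without azoramide library 3 (0.32, edgeR adjusted p = 0.027). Glb1, beta-galactosidase, was at 0.09 in both, Neu1, neuraminidase, at 0.11 and 0.10, Naglu, an enzyme of heparan sulfate breakdown, at 0.12 and 0.08, and Manba, beta-mannosidase, at 0.01 and -0.01. For Glb1, Neu1 and Naglu, plain library totals turned the sign in both genotypes. With the offset for length and GC, Neu1 passed at 0.19 (edgeR adjusted p = 0.0295) and 0.21 (edgeR adjusted p = 0.0287), and Gusb at 0.35 (edgeR adjusted p = 0.0336) and 0.38 (edgeR adjusted p = 0.0355).

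Sulfatases remove sulfate groups from glycosaminoglycans. Sgsh, which acts on heparan sulfate, fell by 0.40 on the log2 scale in control islets (SE 0.13, edgeR adjusted p = 0.0215) and by 0.71 in labelled-knockout libraries (SE 0.142, edgeR adjusted p = 0.000741). Its levels were 15.5, 12.9 and 16.4 CPM with DMSO and 10.0, 12.6 and 11.3 CPM with azoramide in control islets, and 16.8 and 18.7 CPM against 11, 9.5 and 12.2 CPM in labelled-knockout libraries. The azoramide libraries were lower without overlap. The control call was lost without DMSO library 1 (-0.37) or 3 (-0.33), without azoramide library 1 (-0.31) or 3 (-0.40), and with the offset for length and GC (-0.17). Arsb was at -0.05 and -0.14, and with plain library totals it passed at -0.22 (edgeR adjusted p = 0.0323) and -0.30 (edgeR adjusted p = 0.0125). Galns was at 0.20 and 0.05, with no call; Galns passed in control islets without DMSO library 1 (0.26) or azoramide library 1 (0.29).

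Among enzymes of lipids and thioesters, 2 of 4 rose and 0 fell in each genotype. Over all genes tested, 19.3% rose in control islets and 20% in labelled-knockout libraries, and 19.8% fell in each. Asah1, the acid ceramidase, stood at 261, 240 and 235 CPM in control DMSO and at 341, 312 and 345 CPM in control azoramide. The labelled-knockout level was at 249 and 228 CPM with DMSO and at 326, 330 and 339 CPM with azoramide. Groups did not overlap, and it rose by 0.44 (SE 0.0615, edgeR adjusted p = 2.83e-05) and 0.48 (SE 0.0695, edgeR adjusted p = 4.13e-05). The offset for length and GC reduced these to 0.18, still past the threshold, and 0.17 (edgeR adjusted p = 0.0663).

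Ppt1, which removes palmitate from proteins, rose by 0.32 in control islets (SE 0.0652, edgeR adjusted p = 0.000876) and by 0.45 in labelled-knockout libraries (SE 0.0733, edgeR adjusted p = 0.000121). In control islets its call was lost with plain library totals (0.15) and with the offset (0.15). Its relative Ppt2 was at -0.38 (edgeR adjusted p = 0.102) and -0.20 (edgeR adjusted p = 0.468), at a low level of 4.1 to 6.9 CPM in all libraries, and passed in control islets without DMSO library 2 (-0.50, edgeR adjusted p = 0.0477). Lipa, the acid lipase of cholesteryl esters, was at -0.07 and 0.03, with overlapping groups.

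Of the precursors, Grn fell in both genotypes, and Psap passed with plain library totals but not with TMM scaling. Grn encodes progranulin, which is cleaved to granulins in lysosomes. It stood at 50.5, 48.8 and 57.6 CPM in control DMSO and at 39.9, 38.8 and 41.3 CPM in control azoramide. In labelled-knockout libraries it stood at 59.7 and 60.1 CPM with DMSO and at 38.7, 37.1 and 39.4 CPM with azoramide. All azoramide libraries were lower, with a log2 fold change of -0.39 (SE 0.0731, edgeR adjusted p = 0.000451) and -0.64 (SE 0.0802, edgeR adjusted p = 1.01e-05). With the offset for length and GC Grn was at -0.26 and -0.46, past the threshold in both. Psap was at -0.02 (95% interval from -0.14 to 0.11) and -0.05 (95% interval from -0.19 to 0.09). With plain library totals Psap was at -0.19 (edgeR adjusted p = 0.0333) and -0.21 (edgeR adjusted p = 0.035).

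Tfeb was the gene with the lowest level per kilobase. It stood at 4.3, 3.3 and 5.8 CPM in control DMSO and at 1.9, 4.1 and 1.8 CPM in control azoramide. With the knockout label the gene stood at 4.4 and 4.1 CPM with DMSO and at 3.1, 1.7 and 3.0 CPM with azoramide. Groups overlapped in control islets through azoramide library 2 and did not overlap in labelled-knockout libraries. The log2 fold change was -0.78 (SE 0.321, edgeR adjusted p = 0.0639) and -0.70 (SE 0.351, edgeR adjusted p = 0.125), neither past the threshold. Tfeb passed in control islets without azoramide library 2 (-1.28, edgeR adjusted p = 0.00564) or DMSO library 2 (-0.96, edgeR adjusted p = 0.0257) and with plain library totals (-0.95), and with the offset for length and GC it was at -0.28 and -0.13.

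**Figure D3:**
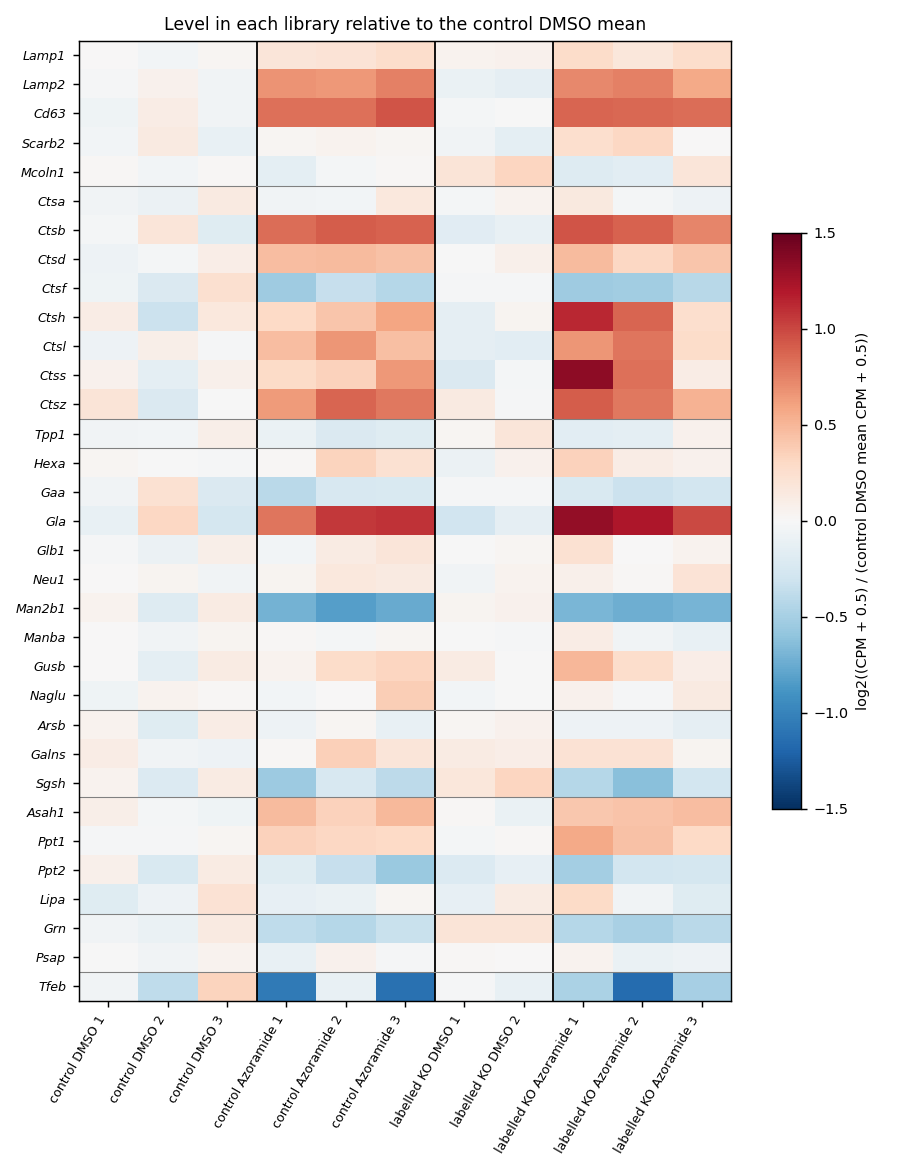
Level of each of the 33 genes (rows, grouped by role) in each of the 11 libraries (columns), as log2 of CPM plus 0.5 over the control DMSO mean plus 0.5; red is higher and blue lower. The columns of both DMSO groups are mostly pale, and the azoramide columns of both genotypes are red for Cd63, Lamp2, Ctsb and Gla and blue for Man2b1, Ctsf, Sgsh and Grn.

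Properties of the genes and cells moved with these changes. Over all genes tested, those that rose in control islets had a median exonic length of 3115 bases and a median GC content of 46.6%, and those that fell had 6399 bases and 52.7%. The lysosomal genes followed the same order, with 3532 bases and 47.8% for the 10 that rose and 4783 bases and 56.4% for the 5 that fell. With an offset for length and GC there were 10 rises and 2 falls in control islets (Man2b1 and Grn stayed past the threshold), and 12 rises and 3 falls in labelled-knockout libraries, while calls over all genes went from 5893 to 3424 and from 6006 to 3624. With plain library totals, which lowered the median of all genes to -0.19 in control islets and -0.16 in labelled-knockout libraries, there were 8 rises and 10 falls in control islets and 10 rises and 9 falls in labelled-knockout libraries. The share of calls that were rises went from 66.7% to 44.4% for the lysosomal genes and from 49.3% to 24.8% for all genes in control islets. In labelled-knockout libraries it went from 72.2% to 52.6% and from 50.2% to 29.1%.

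Markers of islet cell types also shifted with azoramide. Their calls are to be read against all genes, of which 19.3% rose and 19.8% fell in control islets, and 20% and 19.8% in labelled-knockout libraries. The summed level of 5 alpha-cell markers was 14319 to 16420 CPM in DMSO libraries and 23555 to 27672 CPM in azoramide libraries, and 3 of 5 rose in control islets and 4 of 5 in labelled-knockout libraries. Of 10 beta-cell markers, control islets had 4 rises and 4 falls and labelled-knockout libraries 3 and 4, and their summed level was 130210 to 142610 CPM with DMSO and 141130 to 192980 CPM with azoramide. Of 5 endothelial markers, Cdh5 (-0.36 and -0.46) and Plvap (-0.44 and -0.46) fell in both genotypes, and Emcn rose in control islets (0.40). These markers summed to 263 to 277 CPM with DMSO and 207 to 263 CPM with azoramide. The sum of 9 acinar markers ranged from 462 to 4571 CPM, with no call. The summed level of 2 PP-cell markers was 2042 to 2818 CPM with DMSO and 3263 to 4088 CPM with azoramide; both rose in control islets and 1, Pyy, in labelled-knockout libraries. Of 3 delta-cell markers, which summed to 1721 to 1968 CPM with DMSO and 1886 to 2674 CPM with azoramide, Rbp4 rose in each genotype (0.70 and 0.85). Of 6 stromal markers, which summed to 45.2 to 52.4 CPM with DMSO and 45.9 to 49.5 CPM with azoramide, Pdgfrb fell in both (-0.87 and -0.90), and in control islets Col1a1 fell (-1.45) and Rgs5 rose (0.30). Duct markers summed to 942 to 1203 CPM with DMSO and 1157 to 1548 CPM with azoramide, and Krt7 rose in control islets (0.28). No beta-, alpha-, delta- or PP-cell marker was at 0 in any library. In these bulk samples fewer cells of a type and less RNA per cell cannot be told apart, and the part of cell mixture in the lysosomal changes was not tested beyond the macrophage covariate.

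**Figure D4:**
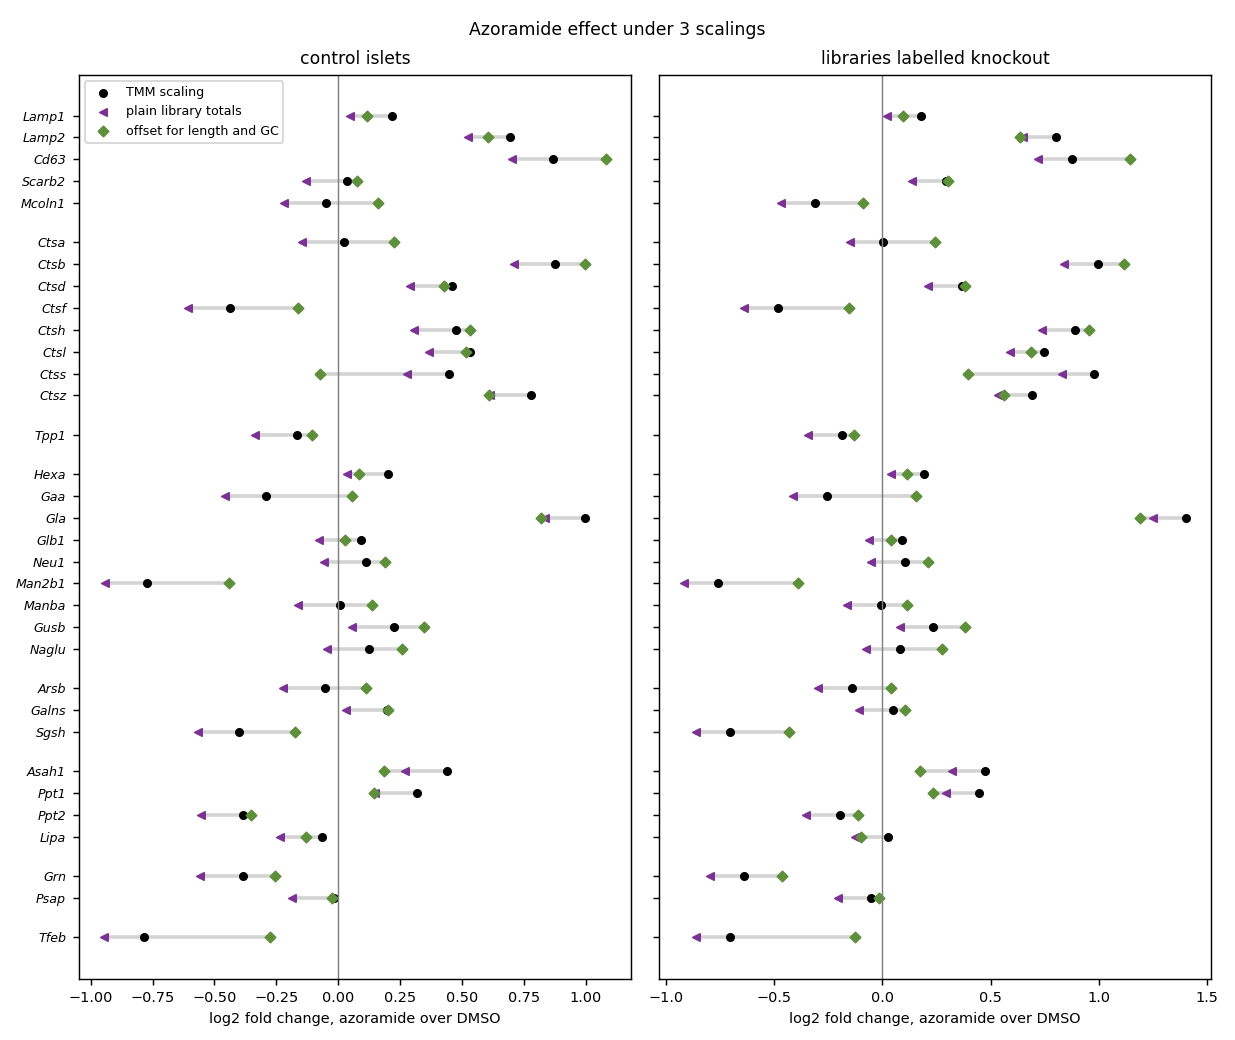
Log2 fold change of azoramide over DMSO (x axis) for each gene (y axis) in control islets (left) and labelled-knockout libraries (right) under TMM scaling (circles), plain library totals (triangles) and an offset for length and GC content (diamonds). Grey lines span the 3 values; Cd63, Lamp2, Ctsb, Gla and Ctsz stay to the right of 0 and Man2b1, Grn, Ctsf and Sgsh to the left under all 3, while Gaa crosses 0.

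Genotype was compared within each treatment. By edgeR, 0 of the 33 genes passed the test between labelled knockout and control, with DMSO or with azoramide, as did 0 of all genes tested (0% in both comparisons). At an unadjusted p under 0.05, there were 2 lysosomal genes and 531 of all genes with DMSO, and 0 lysosomal genes and 754 of all genes with azoramide. DESeq2 called 0 of the 33 in either comparison, and 3 and 2 of all genes. With DMSO the genes of smallest p were Mcoln1 (0.26, 95% interval from 0.05 to 0.47) and Grn (0.20, 95% interval from 0.03 to 0.36), both with an edgeR adjusted p of 0.999.

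The intervals bound what these libraries could have missed. With DMSO the 95% interval lay within 1.5-fold either way for 30 of 33 genes, the exceptions being Ctss, Ppt2 and Tfeb. With azoramide it did so for 30 of 33, the exceptions being Ctsh, Ctss and Tfeb. Cd63 was at -0.02 with DMSO (95% interval from -0.16 to 0.12) and Lamp1 at 0.06 (95% interval from -0.07 to 0.18). Ctss with azoramide was at 0.41 (95% interval from -0.23 to 1.06), and Tfeb with DMSO was at -0.07 (95% interval from -0.79 to 0.66). Leaving out both of the outlying libraries (library 2 of control DMSO, library 3 of labelled-knockout azoramide), an alternative added after the data were seen, gave 1 call with azoramide, Scarb2 at 0.24 (edgeR adjusted p = 0.0297), while calls over all genes went from 0 to 84.

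**Figure D5:**
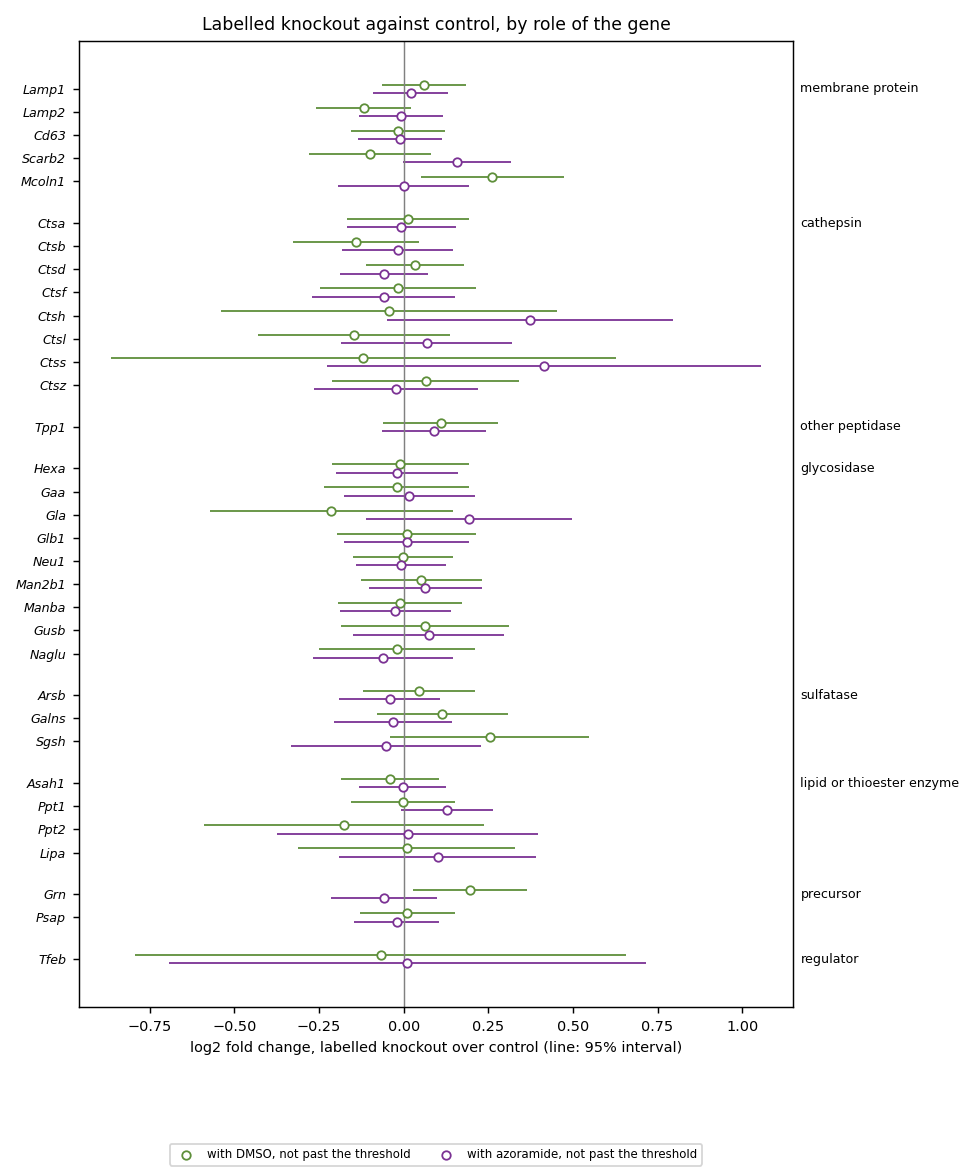
Log2 fold change of labelled knockout over control (x axis) for each of the 33 genes (y axis, grouped by role), with DMSO (green) and with azoramide (purple). Lines are 95% intervals; all points are open because no gene passed an edgeR adjusted p of 0.05.

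The difference between the azoramide effects of the 2 genotypes was tested as an interaction. It was past the threshold for 0 of the 33 genes and 0 of all genes tested (0%) by edgeR, and for 0 and 0 by DESeq2. At an unadjusted p under 0.05 there were 2 lysosomal genes, Scarb2 at 0.26 (95% interval from 0.02 to 0.50) and Grn at -0.25 (95% interval from -0.48 to -0.02), and 563 of all genes. The interval lay within 1.5-fold for 26 of 33 genes, the exceptions being Ctsh, Ctsl, Ctss, Gla, Ppt2, Sgsh and Tfeb. Gla was at 0.41 (95% interval from -0.07 to 0.88) and Sgsh at -0.31 (95% interval from -0.71 to 0.10), so both intervals include 0.

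Other genes of the lysosomal pathway were taken from lists chosen by role. The shares of all genes tested to read them against were 19.3% rising and 19.8% falling in control islets and 20% and 19.8% in labelled-knockout libraries. No list was tested against other genes. Of 31 other hydrolases and activators, control islets had 11 rises and 3 falls and labelled-knockout libraries 13 and 5. Among those of smallest p were Ifi30, a thiol reductase (0.63 and 0.47), Npc2, which hands on cholesterol (0.56 and 0.65), and Rnaset2b, a ribonuclease (0.43 and 0.42). With plain library totals the count was 7 rising and 10 falling in control islets and 6 and 9 in labelled-knockout libraries. With that scaling 1628 of all 15093 genes tested rose and 4943 fell in control islets. In labelled-knockout libraries 1866 rose and 4542 fell. Rnaset2b has a close copy in mouse, Rnaset2a, so its value is uncertain. Without labelled-knockout DMSO library 1, 8 rose and 1 fell in labelled-knockout libraries, without DMSO library 2, 8 rose, and without azoramide library 1 or 2, 3 or 2 fell.

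Of 23 other membrane proteins, control islets had 7 rises and 5 falls (19.3% and 19.8% of all genes), and labelled-knockout libraries 5 and 7 (20% and 19.8% of all genes). With plain library totals they had 4 and 8 in control islets and 3 and 7 in labelled-knockout libraries, to be read against all genes with that scaling, given above. Laptm4a (0.68 and 0.61), Laptm4b (0.59 and 0.41) and Lmbrd1, a protein of cobalamin export (0.34 and 0.33), rose. Sidt2, a putative nucleic acid transporter, fell (-0.53 and -0.59). With the offset for length and GC Sidt2 was at -0.24 and -0.25, neither past the threshold. The offset also ended the labelled-knockout calls of Laptm4b (0.13) and Lmbrd1 (0.19), while Laptm4a kept both of its calls. Plain library totals ended the labelled-knockout call of Laptm4b too (0.25). In labelled-knockout libraries Laptm4b was not past the threshold without DMSO library 1 (0.33, edgeR adjusted p = 0.103). Cd68, a membrane protein that is high in macrophages and was chosen after its values were seen, rose by 1.04 and 1.46 (edgeR adjusted p = 0.00216 and 0.000653).

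Of 25 genes for delivery to lysosomes, 7 rose and 8 fell in each genotype, against the same shares of all genes. With plain library totals 6 rose and 12 fell in control islets, and 5 and 11 did in labelled-knockout libraries. These counts too are to be read against all genes with that scaling. Vps35 (0.72 and 0.75) and Vps29 (0.54 and 0.70), subunits of retromer, which recycles sorting receptors, rose, as did Gnptg, a subunit of the enzyme that makes the mannose 6-phosphate tag (0.47 and 0.55). Sort1, the sorting receptor sortilin, fell (-0.60 and -0.66). Without control azoramide library 1, 5 fell in control islets, and without labelled-knockout DMSO library 2, 5 fell in labelled-knockout libraries.

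Of 24 genes for Tfeb relatives and mTORC1 at the lysosome, control islets had 9 rises and 7 falls, and labelled-knockout libraries 9 and 6, against the same shares of all genes. With plain library totals the counts were 7 and 10 in control islets and 8 and 8 in labelled-knockout libraries, again to be read against all genes with that scaling. Lamtor5 (0.81 and 0.66), Lamtor4 (0.73 and 0.56) and Lamtor1 (0.49 and 0.40), subunits of Ragulator, which anchors mTORC1, rose, as did Rheb, its activating GTPase (0.64 and 0.79). Mtor (-0.39 and -0.47), Rptor (-0.41 and -0.32) and Tsc2 (-0.44 and -0.56) were among the genes of this list that fell in both genotypes. They were chosen after their values were seen, as were Tfe3 and Mitf. Tfe3 was lower (-0.42 in each, edgeR adjusted p = 0.00121 and 0.00255), which the offset for length and GC reduced to -0.12 and -0.09, not past the threshold. Mitf was at -0.08 and -0.32 (edgeR adjusted p = 0.767 and 0.217), and passed in labelled-knockout libraries without azoramide library 3 (-0.52, edgeR adjusted p = 0.0454).

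Of 4 peptidase inhibitors that were tested, 3 rose in each genotype and 0 fell, also with plain library totals and with the offset. Over all genes, 19.3% rose in control islets and 20% in labelled-knockout libraries, and 19.8% fell in each. With plain library totals 1628 and 1866 of 15093 genes rose in the 2 genotypes, and with the offset 1961 and 1979 of 15084. Those that rose were the cystatins Cstb (1.04 and 1.19) and Cst3 (0.70 and 0.75) and the serpin Serpinb6a (0.68 and 0.61). Cst6, also a cystatin, was at 0.34 and 0.58 without passing. Cstb and Cst3 are known to inhibit Ctsb and Ctsl, which rose as well. With the offset, 1 of 31 other hydrolases and 1 of 23 membrane proteins fell in control islets. So did 3 of 25 delivery genes and 3 of 24 mTORC1 genes. In labelled-knockout libraries these counts were 3, 3, 3 and 3. Falls over all genes were fewer as well. With the offset 1463 of 15084 genes fell in control islets and 1645 in labelled-knockout libraries. With TMM scaling 2985 and 2992 of 15093 had fallen. Whether the lists differ in this from all genes was not tested. With the offset Ifi30 and Lamtor5 were at 0.07 and 0.09 in labelled-knockout libraries, neither past the threshold. None of these lists had a call in the genotype comparisons or the interaction by edgeR.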

How the data were processed

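RNA-seq of 11 islet libraries was used. The table the authors deposited holds raw, unnormalized counts of reads for 32285 genes in each library; per the submitters' processing notes, reads were aligned with STAR 2.7.2a to mm10, and DESeq2 is named without a role. Which counter, annotation and strand setting made them is not given in the sources used here. Reads shared by overlapping genes can therefore not be assigned: 8 of the 33 genes share over 10% of exonic bases with another gene in GENCODE M21 (Arsb, Ppt2, Ctsd, Ctsl, Sgsh, Ctsa, Ctsb and Hexa).

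Counts were tested in R 4.3.3 with edgeR 4.0.16 (quasi-likelihood, robust, TMM, filter by group, 4 groups in 1 fit, where the group of 2 libraries borrows the spread of the others); DESeq2 1.42.0 was an alternative. The method was tested on simulated data in which a small part of the genes changed. Many more genes changed in these islets, so that test does not bear on the choice of scaling. Lengths and GC content are from GENCODE M21, and promoters from RefSeq; the offset used splines with 4 df on genes with a mean count of at least 20. No libraries of a group agreed within sampling noise. P-values measure the spread between these samples. The 33 genes and the lists were chosen with earlier results of these data known. All 33 genes are reported, per-library values being given for the 8 of smallest p and for Tfeb, Lamp1, Ctsb, Ctsd, Ctsl and Ctss; of each pathway list the 4 of smallest p in control islets are named, except 1 that is not reported here. Alternatives were other scalings and filters, the length and GC offset, the compared groups alone, a replicate block, DESeq2 and leaving out each library.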

Additional observations from a re-analysis of the deposited data

How the results depend on the processing

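Of 1320 azoramide values of single lysosomal genes under other settings, 1182 kept their direction and side of the threshold, 51 newly passed, 42 no longer passed and 45 changed sign; of the sign changes, only that of Gaa in control islets concerns a value past the threshold. The count of falling lysosomal genes varied most. In control islets it was 10 with plain library totals, 2 with the offset for length and GC, 8 without the pair of outlying libraries (control DMSO 2 and labelled-knockout azoramide 3), and 3 to 6 without any 1 library (3 without control azoramide library 1). In labelled-knockout libraries it was 9 with plain library totals and 3 with the offset. Falls over all genes varied too. In control islets they went from 2985 to 4943 with plain library totals, 1463 with the offset and 3279 without the outlying pair. In labelled-knockout libraries they went from 2992 to 4542 with plain library totals and 1645 with the offset. Without the outlying pair, 1 lysosomal gene was higher in labelled knockout with azoramide.

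Sign changes in control islets with plain library totals were Scarb2 -0.13, Ctsa -0.145, Glb1 -0.076, Neu1 -0.056, Manba -0.16 and Naglu -0.046, and with the offset Mcoln1 0.16, Ctss -0.074, Gaa 0.055 and Arsb 0.11. In labelled-knockout libraries they were, with plain library totals, Ctsa -0.15, Glb1 -0.063, Neu1 -0.053, Lipa -0.13, Naglu -0.075 and Galns -0.11, and with the offset Gaa 0.16, Manba 0.11, Lipa -0.097 and Arsb 0.042. Without the outlying pair, Ctsa was -0.015 and Manba -0.016 in control islets and Manba 0.0396 in labelled-knockout libraries. With the macrophage covariate Ctsa was -0.056 and Lipa -0.086, and with DESeq2 Manba was 3e-04, in labelled-knockout libraries. Without any 1 library, values in control islets that changed sign ran from -0.018 to 0.11 for Scarb2, -0.087 to 0.0043 for Mcoln1, -0.044 to 0.096 for Ctsa, -0.063 to 0.034 for Psap, -0.016 to 0.027 for Manba, -0.15 to 0.063 for Lipa, -0.018 to 0.205 for Naglu, -0.14 to 0.0048 for Arsb and -0.17 to 0.086 for Mitf. In labelled-knockout libraries they ran from -0.068 to 0.0502 for Ctsa, -0.078 to 0.039 for Manba and -0.13 to 0.16 for Lipa. The cause of these changes was not tested.

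Same-numbered libraries could not be shown to pair: the correlations of their deviations were 0.06, 0.11 and -0.02 in control islets and 0.04 and -0.14 in labelled-knockout libraries. The 2 labelled-knockout DMSO libraries deviate from their mean by equal and opposite amounts. Exchanging them only turns the sign (-0.04 and 0.14), so the labelled-knockout values are a weak check of pairing. With a replicate block, control islets had 13 rising and 5 falling lysosomal genes and labelled-knockout libraries 13 and 6, with 6004 and 6162 calls over all genes. Manba was then 0.037 in labelled-knockout libraries, Lamp1 there was not past the threshold (0.16, edgeR adjusted p = 0.0617), and Mitf there was past it (-0.52). Gusb was past it in control islets (0.22, edgeR adjusted p = 0.0298) and labelled-knockout libraries (0.32, edgeR adjusted p = 0.0125), as were Ctsh (0.48) and Ctss (0.44) in control islets and Tpp1 (-0.26) in labelled-knockout libraries. Counts of at least 31 per gene and library left depth a minor limit for all but the lowest genes, Tfeb, Ppt2 and Ctsh. The interaction could not be fitted with the compared groups alone, since it uses all 4.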
